A study of Homo sapiens with 8 samples.

Results

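AP-1 transcription factors and the immediate early genes induced alongside them were examined in SCC25, an established line of head and neck squamous cell carcinoma (HNSCC), after knockdown of the transcription factor ETS1. The 10 genes were FOS, FOSB, FOSL1, FOSL2, JUN, JUNB, JUND, ATF3, EGR1 and IER3, taken by name from the 56638 gene symbols listed in both count tables. Short-term loss of ETS1 was obtained by transfecting a pool of 4 siRNAs (ETS1 siRNA), with non-targeting siRNA as its control (siRNA control). Long-term loss was obtained with a lentiviral hairpin in puromycin-selected stable cells (shETS1), with a non-targeting hairpin as its control (shCON). Each of the 4 groups had 2 libraries, and all cells were kept in medium with 10% FBS and hydrocortisone. The pool had no separate siRNAs to compare, the sequenced shETS1 cells carried a single hairpin, and the time between transfection and harvest is not given in the sources used here. The siRNA-treated cells were described as biological replicates. Nothing in the labels says that the shCON and shETS1 libraries came from separate cultures or transductions, so that p-values there measure the spread between these libraries, which may be technical.

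AP-1 is a dimer of basic leucine zipper proteins. A FOS family protein pairs with a JUN family protein, whereas JUN proteins can also pair with each other, and ATF3 is a related partner that often represses. Growth factors, serum and stress raise FOS, EGR1, ATF3 and IER3 quickly through MAP kinases, serum response factor (SRF) and the ETS-domain cofactors ELK1, ELK3 and ELK4. FOSL1 and FOSL2 are induced later and last longer, and FOSL1 (FRA-1) is a familiar AP-1 subunit of invasive carcinoma cells. ETS1 and AP-1 can bind side by side at composite sites, for example in promoters of matrix metalloproteinases.

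Short promoter windows of these genes were searched for sequences through which such signals can act. RefSeq promoter windows (250 bases before the start) were matched by symbol for 8 of the 10 genes, all but FOSL1 and IER3. There were 9 windows, since ATF3 had a pair of them, and each window occurred once in GRCh37. Any other starts of these genes were not searched. These bases were searched on both strands for the AP-1 site TGANTCA, the cAMP response element (CRE) TGACGTCA, its variant TGACATCA, and the CArG box bound by SRF. The pattern CNGGAA, called the ETS core below, was also searched, and GGAA in other surroundings was not counted. The variant TGACATCA was added to the search after the windows had been read. The 3 stretches below, 130 bases up to the start, are shown because they hold the CArG box and TGACATCA matches found in these windows, written 5′ to 3′ with every match in capitals and the coordinates in GRCh37.
EGR1, chr5:137801038-137801167, plus strand: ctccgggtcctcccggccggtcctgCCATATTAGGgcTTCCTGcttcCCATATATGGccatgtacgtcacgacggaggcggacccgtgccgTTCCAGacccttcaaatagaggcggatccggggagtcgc
JUN, chr1:59249720-59249849, minus strand: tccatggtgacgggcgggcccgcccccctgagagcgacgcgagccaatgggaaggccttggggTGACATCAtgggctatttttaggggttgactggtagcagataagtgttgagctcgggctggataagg
ATF3, upstream start, chr1:212738619-212738748, plus strand: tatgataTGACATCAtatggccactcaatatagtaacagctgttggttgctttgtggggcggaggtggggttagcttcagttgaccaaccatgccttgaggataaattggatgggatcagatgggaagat
EGR1 held 2 CArG boxes, at bases 105 to 96 and 83 to 74 before the start, with an ETS core between them at bases 93 to 88 and another at bases 39 to 34. A CArG box was present in 1.16% of all 35116 windows and an ETS core in 54.9%. TGACATCA lay at bases 67 to 60 of JUN and at bases 123 to 116 of ATF3, and was present in 2.37% of windows. JUND held TGACGTCA, present in 1.65% of windows, at bases 200 to 193. FOS and JUNB had 1 ETS core each and FOSB had 2, whereas the FOSL2 window and that of the downstream ATF3 start had no match. Both of these windows lie inside the annotated gene. That of FOSL2 spans 28615475 to 28615724, past the gene start at 28615315. That of ATF3 spans 212788110 to 212788359, in a gene from 212738676 to 212794119. Whether these starts are used in SCC25 was not tested. TGANTCA, found in 6.57% of all windows, was in none of the 9. No matches overlapped each other in these windows, and a match is a description of sequence, not of binding. Sites farther upstream, or with letters outside these patterns, were not searched. A window without a match therefore does not show that the gene lacks such a site.

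Total counts ranged from 15954616 to 20469763 in the siRNA table and from 23834078 to 25953213 in the shRNA table. All 10 genes passed the filter on low counts in both tables. ETS1 was lower in both knockdowns, with a log2 fold change of -4.13 after siRNA and -2.89 after shRNA. The 2 tables differed in content. The structural RNAs RN7SK, RN7SL1, RN7SL2, RPPH1 and RMRP, which lack a poly(A) tail, together took at most 0.00339% of the siRNA libraries. They took 5.61% and 6.63% of the shCON libraries and 9.64% and 12.3% of the shETS1 libraries. Mitochondrial RNAs took 0% of each siRNA library and 0.508% to 0.820% of the shRNA libraries. Levels are therefore compared within a table, as CPM, the count divided by a library size scaled by TMM and expressed per 1000000 reads, and levels of the tables are given side by side without a test. All 7 squamous epithelial markers were above 1 CPM in every library, whereas leukocyte markers summed to at most 0.756 CPM and endothelial markers to at most 1.12 CPM. The 5 fibroblast markers were not low throughout. Their sum was 23.1 to 31.4 CPM in the siRNA table, 232 and 261 CPM in shCON, and 2043 and 1943 CPM in shETS1. The squamous label thus held for the squamous markers, while fibroblast markers were also present.

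**Figure D1:**
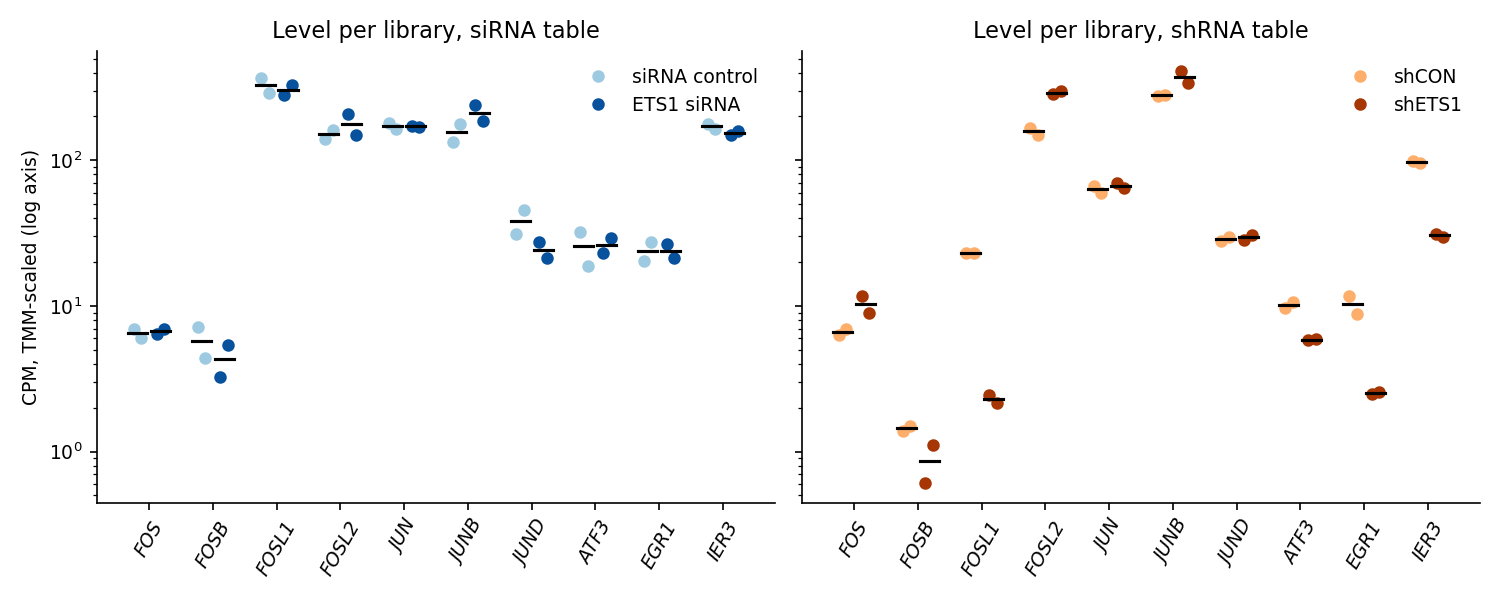
Level of each gene in every library, in CPM on a log axis, with the siRNA table on the left and the shRNA table on the right. Points are libraries and black lines are group means. In the siRNA table most pairs of groups interleave, whereas in the shRNA table FOSL1, EGR1, ATF3 and IER3 sit lower in both shETS1 libraries and FOS, FOSL2 and JUNB sit higher.

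The composition of the AP-1 transcripts was examined before any comparison. Transcripts of different genes were compared as CPM per kilobase of merged exons. In the siRNA control cells the order was FOSL1 (174 CPM per kb), IER3 (127), JUNB (85.3), JUN (47.5), FOSL2 (21.0), JUND (19.8), EGR1 (7.61), ATF3 (6.40), FOS (2.04) and FOSB (1.04), each a mean of 2 libraries. FOSL2 and JUND overlapped between libraries, as did EGR1 and ATF3, and the other neighbours in this order did not. In ETS1 siRNA cells the order was the same except that JUNB (116 CPM per kb) and IER3 (115) changed places, and these overlapped. In shCON cells JUNB stood at 153 CPM per kb, above IER3 (72.6), FOSL2 (22.1), JUN (17.5), JUND (14.99) and FOSL1 (12.2), with EGR1 (3.26), ATF3 (2.53), FOS (2.09) and FOSB (0.261) below. In shETS1 cells JUNB (205 CPM per kb) was followed by FOSL2 (40.6), IER3 (22.6), JUN (18.5), JUND (15.4), FOS (3.25), ATF3 (1.47), FOSL1 (1.21), EGR1 (0.807) and FOSB (0.155), with no overlap between neighbours in either group of the shRNA table. FOS and FOSB, the classical partners of JUN, were thus the scarcest FOS family transcripts of the control cells in both tables.

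Within the FOS family the shares moved between FOSL1 and FOSL2. FOSL1 made up 89.5% and 85.9% of the family sum per kilobase in the siRNA control libraries and 82.6% and 87.8% in the ETS1 siRNA libraries. It made up 32.5% and 34.2% in shCON and 2.89% and 2.48% in shETS1. FOSL2 took 8.94% and 12.6% of the siRNA control sum and 16.0% and 10.6% after ETS1 siRNA. Its share was 61.5% and 58.9% in the shCON libraries, against 88.6% and 90.9% under shETS1. The shares thus overlapped between the siRNA groups and were far apart between the hairpin groups. Because FOSL1 fell while FOSL2 rose, the family sum did not fall: it was 37.6 and 35.6 CPM per kb in shCON and 44.7 and 45.7 in shETS1. In the siRNA table the sum was 217 and 180 CPM per kb for the control and 181 and 198 for the knockdown.

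JUNB held the largest share of the JUN family in every library. Its share was 52.6% and 58.6% of the siRNA control sum, 67.8% and 63.7% after ETS1 siRNA, 82.2% and 82.7% for shCON, and 86.8% and 84.7% for shETS1. JUN, the strongest transactivator of the family, made up 24.8% to 35.7% in the siRNA table and 7.47% to 9.96% in the shRNA table. The FOSL1 and JUN levels of the control cells therefore differed between the tables, with FOSL1 at 329 ± 53.0 CPM for siRNA control against 23.0 ± 0.0415 CPM for shCON (SD, n = 2 each), and JUN at 172 ± 9.95 and 63.3 ± 4.70 CPM. ETS1 itself stood at 268 and 77.2 CPM in these controls. Stable transduction, preparation and counting cannot be told apart in that difference.

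**Figure D2:**
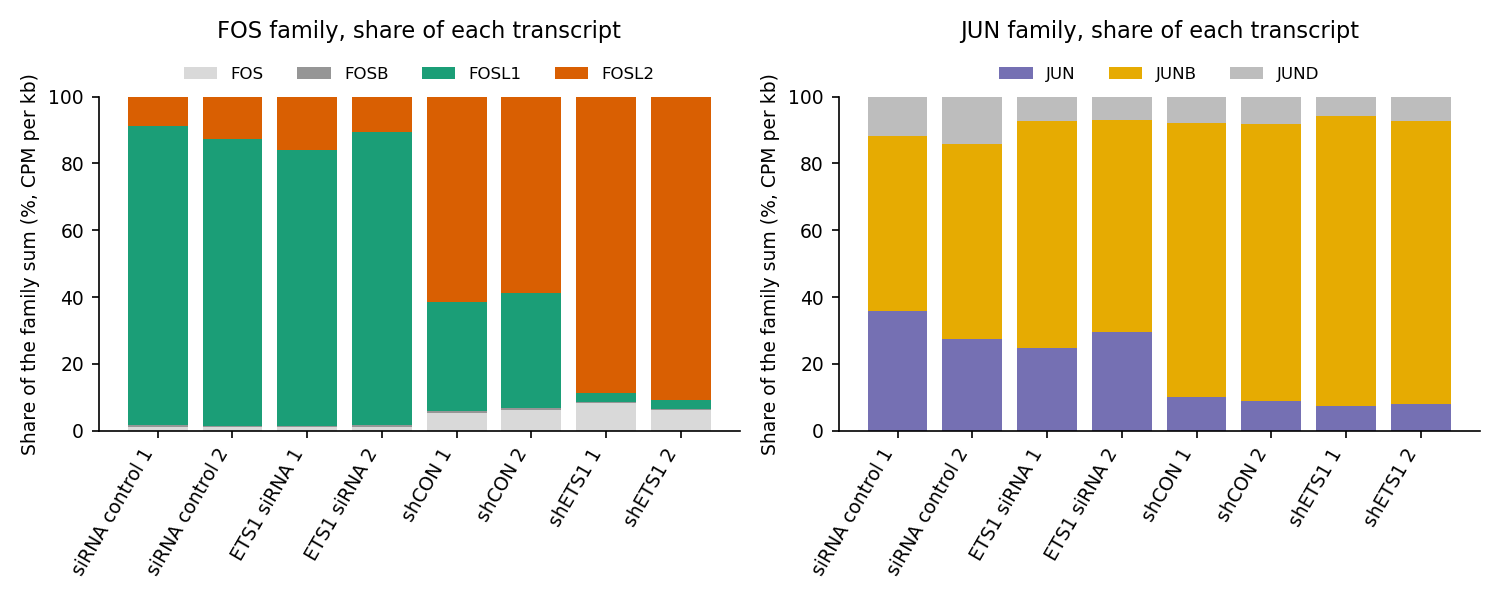
Share of each transcript in the FOS family sum (left) and the JUN family sum (right), in percent of CPM per kilobase, with a bar for each library. FOSL1 holds at least 82.6% of the FOS family in the siRNA table, and FOSL2 holds 88.6% and 90.9% in the shETS1 libraries.

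The short-term comparison asked how these genes stood soon after loss of ETS1. None of the 10 was called at an adjusted p under 0.1 by edgeR's quasi-likelihood test after siRNA, beside 3.41% of all 14742 genes tested (1.13% called higher and 2.27% called lower), a fall of ETS1 to 15.3 ± 2.97 CPM (SD, n = 2) notwithstanding. At an unadjusted p under 0.05 there were 2, JUNB and JUND, a share near the 18.5% of all genes tested, and DESeq2 called 1, JUND, beside 5.41% of all genes. Their median log2 fold change was -0.0027, beside 0.0018 over all genes. The 7 squamous markers summed to 15304 and 20165 CPM in siRNA control and 27104 and 23239 CPM after knockdown, with none called by edgeR and 4 at an unadjusted p under 0.05, and their part in these values was not tested. In bulk cultures, fewer cells expressing a gene and less RNA per cell cannot be told apart.

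JUNB, which often restrains proliferation driven by JUN, and JUND, the JUN protein most tied to quiescence, had the largest differences of their family in opposite directions. JUNB was at 133 and 179 CPM in siRNA control and 238 and 186 CPM in ETS1 siRNA, where the difference on the log2 scale was 0.44 (SE 0.18, edgeR adjusted p 0.25). JUND was at 31.2 and 45.3 CPM in siRNA control and 27.5 and 21.2 CPM in ETS1 siRNA, where the difference was -0.65 (SE 0.20, edgeR adjusted p 0.16). Neither gene overlapped between the groups, and neither did IER3, but 51.9% of all genes tested did not overlap either. JUND passed the threshold in 7 of 15 alternatives, among them DESeq2 (adjusted p 0.067), offsets for length and GC content (edgeR adjusted p 0.016) and the fit without ETS1 siRNA replicate 1 (edgeR adjusted p 0.043). Without siRNA control replicate 2 its difference was -0.36 (edgeR adjusted p 0.46). JUNB shares 259 exon bases with HOOK2 on the opposite strand, and the use of strand in counting is not given in the sources used here, so that its count is uncertain.

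JUN was at 179 and 165 CPM in siRNA control and 172 and 170 CPM after knockdown, with a log2 fold change of -0.01 and a 95% interval from -0.30 to 0.28. FOSL1 was at 367 and 292 CPM in siRNA control and 282 and 328 CPM in ETS1 siRNA, with a log2 fold change of -0.11 and an interval from -0.46 to 0.24. FOSL2 was at 139 and 162 CPM and then 207 and 150 CPM, a log2 fold change of 0.25 (interval -0.16 to 0.65). The groups overlapped for all 3 genes, and each interval held 0.

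Of the immediate early genes, EGR1, a zinc finger factor induced through its CArG boxes, was at 20.3 and 27.5 CPM in siRNA control and 26.6 and 21.2 CPM in ETS1 siRNA. Its log2 fold change was 0.01 (interval -0.43 to 0.44). ATF3 was at 32.4 and 18.8 CPM and then 22.9 and 29.3 CPM, a log2 fold change of 0.02 (interval -0.54 to 0.59). Both genes overlapped widely between the groups. IER3, an apoptosis regulator induced by stress and NF-kB, was at 178 and 165 CPM in siRNA control and 150 and 159 CPM after knockdown, with a log2 fold change of -0.15 (interval -0.44 to 0.14). FOS was at 6.95 and 6.05 CPM and then 6.46 and 6.99 CPM, a log2 fold change of 0.05, and FOSB at 7.15 and 4.43 CPM and then 3.26 and 5.42 CPM, a log2 fold change of -0.42 (interval -1.13 to 0.30). FOS and FOSB overlapped between the groups.

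The spread between replicates in the siRNA table was above the median over all genes for 8 of the 10 genes in siRNA control and 7 in ETS1 siRNA, whereas JUN and IER3 lay below it in both. The absolute log2 ratio of replicate 1 to replicate 2 reached 0.79 for ATF3 in siRNA control, where the median over 10711 genes above 5 CPM was 0.13. In ETS1 siRNA it was largest for FOSB, with a ratio of -0.73 beside an absolute median of 0.17. For 9 of the 10 genes, JUN being the exception, the ratio had opposite signs in the control and the knockdown, so that the replicate with the higher level was not the same number in both groups. Over 10711 genes of the siRNA table, deviations of same-numbered libraries from their group means also correlated negatively (-0.59). The opposite signs are thus not particular to these 10 genes. In the shRNA table the medians were 0.08 and 0.10, and the largest ratio was again that of FOSB, at -0.86 in shETS1.

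The long-term comparison asked how the genes stood under lasting loss of ETS1. Of the 10 genes, 8 were called after shRNA, 3 higher and 5 lower, beside 60.6% of all 16481 genes tested (29.7% called higher and 30.9% called lower). A count of 8 of 10 is thus read against a background in which most genes were called. The median absolute log2 fold change was 0.76 in these 10 genes and 0.40 over all genes, and the signed median was -0.35 beside 0.00066. The groups did not overlap for 8 of the 10 genes, as for 76.6% of all genes tested.

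FOSL1 showed the largest change. It was at 23.0 and 23.0 CPM in shCON and at 2.44 and 2.14 CPM in shETS1, a 10.0-fold fall and a log2 fold change of -3.33 (SE 0.14, edgeR adjusted p 3.1e-12), resting on 579 and 596 reads in the controls and 56 and 54 in the knockdown. Among the 16481 genes tested its log2 fold change ranked 47 from the lowest. FOSL1 lies on the minus strand of chromosome 11 (GRCh37, 65659520 to 65668044). FOSL2, its closest relative, on chromosome 2 (28615315 to 28640184, plus strand), moved the other way, from 166 and 150 CPM to 284 and 298 CPM, a log2 fold change of 0.88 (SE 0.08, edgeR adjusted p 3.6e-08).

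EGR1, on chromosome 5 (137801168 to 137804992, plus strand), was at 11.7 and 8.83 CPM in shCON and at 2.48 and 2.58 CPM in shETS1, a 4.05-fold fall with a log2 fold change of -2.01 (SE 0.18, edgeR adjusted p 4.2e-08). IER3, on chromosome 6 (30710976 to 30712325, minus strand), fell from 99.3 and 96.6 CPM to 31.4 and 29.7 CPM, a log2 fold change of -1.68 (SE 0.08, edgeR adjusted p 1.4e-11). Its exons share 85 bases with HCG20 and 440 with IER3-AS1 on the opposite strand, which leaves its count uncertain to that extent. ATF3 fell from 9.67 and 10.6 CPM to 5.79 and 5.95 CPM, a log2 fold change of -0.79 (SE 0.14, edgeR adjusted p 9.2e-05). In all 3 genes both shETS1 libraries lay below both shCON libraries.

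FOS rose where EGR1 fell, and serum and MAP kinase signals are known to induce both. FOS was at 6.32 and 6.98 CPM in shCON and 11.7 and 8.96 CPM in shETS1, a log2 fold change of 0.63 (SE 0.15, edgeR adjusted p 0.0016), so that both knockdown libraries were higher. FOSB was the scarcest gene, at 1.39 and 1.503 CPM in shCON and 0.610 and 1.11 CPM in shETS1, with a log2 fold change of -0.73 (SE 0.33, edgeR adjusted p 0.071). That call did not hold with DESeq2 (adjusted p 0.27), without shCON replicate 1 (edgeR adjusted p 0.11), without shCON replicate 2 (0.19) or without shETS1 replicate 1 (0.44), where the log2 fold change was -0.39.

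In the JUN family, JUNB rose from 278 and 281 CPM to 408 and 342 CPM, a log2 fold change of 0.43 (SE 0.09, edgeR adjusted p 0.00041). JUN was at 66.6 and 59.97 CPM in shCON and 69.6 and 64.7 CPM in shETS1, a log2 fold change of 0.08 with a 95% interval from -0.09 to 0.25 (edgeR adjusted p 0.39). JUND was at 27.9 and 29.9 CPM and then 28.6 and 30.9 CPM, a log2 fold change of 0.04 with an interval from -0.15 to 0.23 (edgeR adjusted p 0.73). JUN and JUND overlapped between the groups. With offsets for length and GC content, JUN was called (log2 fold change 0.27, edgeR adjusted p 0.0051) and so was JUND (0.21, edgeR adjusted p 0.052), while the other 7 calls besides FOSB stood.

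Other features of the libraries moved with the hairpin. The 5 fibroblast markers summed to 232 and 261 CPM in shCON and 2043 and 1943 CPM in shETS1, and the 3 that passed the filter, DCN, LUM and COL6A3, were all called higher. DCN and LUM, matrix proteoglycans, carried the sum, and COL6A3 was at 7.28 and 5.55 CPM in shCON and 8.15 and 8.80 CPM in shETS1. PDGFRB and THY1 were under 1 CPM in every shRNA library. In the siRNA table this sum was 23.1 to 31.4 CPM. The share of the structural RNAs named above was also higher in both shETS1 libraries. With these and mitochondrial RNAs taken out, the same number of members, 8, was called, beside 9974 of all 16459 genes tested. Of the 7 squamous markers 5 were called higher, among them DSG3 (log2 fold change 1.43) and KRT17 (1.17), and 2 lower, and their sum was 15430 and 15581 CPM in shCON and 26185 and 25766 CPM in shETS1. The part of either marker list in the result was not tested.

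**Figure D3:**
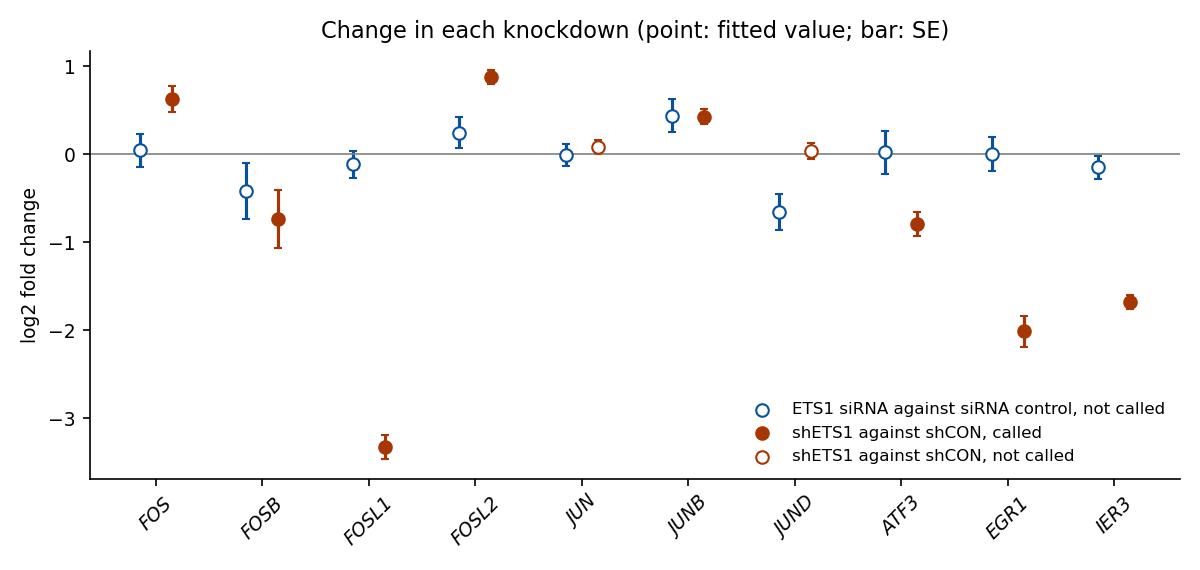
Fitted log2 fold change of each gene after siRNA (blue) and after shRNA (brown), with its SE as a bar, where filled points passed the threshold. No siRNA point is filled, and after shRNA the values run from -3.33 for FOSL1 to 0.88 for FOSL2.

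Whether the change differed between the knockdowns was tested directly. In a single fit of all 8 libraries, the shRNA effect minus the siRNA effect was called for 6 of the 10 genes, beside 34.8% of all 17190 genes tested (15.1% called higher and 19.7% called lower). The difference was -3.24 for FOSL1 (SE 0.21, edgeR adjusted p 8e-06), -2.04 for EGR1 (SE 0.29, edgeR adjusted p 0.00061) and -1.55 for IER3 (SE 0.13, edgeR adjusted p 4.1e-05), on the log2 scale. These 3 differences passed under each of the 18 alternatives run. FOSL2 differed by 0.61 (SE 0.20, edgeR adjusted p 0.046), JUND by 0.67 (SE 0.24, edgeR adjusted p 0.064) and ATF3 by -0.83 (SE 0.32, edgeR adjusted p 0.081), and these calls held under 14, 11 and 10 of the 18 alternatives. With the replicate number as a block, 3 of the 10 were called, beside 4264 of all 17190 genes tested. Without siRNA control replicate 2 the differences were 0.49 for FOSL2, 0.37 for JUND and -0.51 for ATF3. Without shCON replicate 2 they were 0.54, 0.71 and -0.77. For JUNB the difference was -0.04, with a 95% interval from -0.52 to 0.45, but 0.40 with offsets for length and GC content (edgeR adjusted p 0.064), and for FOS it was 0.57 (edgeR adjusted p 0.11). The knockdowns had a count table each and differed in RNA content, from which separate preparation is inferred, since the labels do not state it. Duration, reagent and preparation therefore cannot be told apart in these differences.

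The partners and the signal path around these genes were described by lists, whose counts are read against the 3.41% of all genes called after siRNA and the 60.6% called after shRNA. Of all calls, 66.7% were lower after siRNA and 50.9% after shRNA. Of 12 other AP-1 dimer partners tested, 2 were called after siRNA, both higher. These were JDP2, a repressor that pairs with JUN, with a log2 fold change of 0.91 (SE 0.19, edgeR adjusted p 0.064), and MAF with 0.70 (SE 0.17, edgeR adjusted p 0.093). After shRNA 5 were called higher and 4 lower. JDP2 was again higher, from 26.0 and 26.6 CPM to 41.2 and 39.4 CPM, and MAF rose from 17.0 and 17.3 CPM to 55.8 and 56.9 CPM. BATF, which pairs with JUN proteins in lymphocytes, rose from 1.75 and 1.97 CPM to 9.98 and 8.32 CPM, and MAFF fell by 0.70 on the log2 scale. The list medians were -0.01 after siRNA and -0.02 after shRNA, near the medians over all genes.

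Other immediate early genes did not move as a block. After siRNA, 1 of 19 tested was called, the survival factor MCL1, which fell from 594 and 534 CPM to 373 and 357 CPM (log2 fold change -0.63, SE 0.12, edgeR adjusted p 0.055). Under the hairpin MCL1 was called higher, at 540 and 547 CPM in shCON and 632 and 619 CPM in shETS1. Its log2 fold change there was 0.20 (edgeR adjusted p 0.034), a value added after it was seen. After shRNA, 5 of 17 were called higher and 5 lower, with a median of -0.02. DUSP1, the phosphatase that switches MAP kinases off, rose from 34.2 and 34.8 CPM to 143 and 139 CPM. GADD45B rose by 1.61 on the log2 scale, whereas IER2 fell by 1.01 and MYC by 0.75. Calls in both directions were thus present in this list, as among all genes, where 29.7% were called higher and 30.9% lower after shRNA.

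The upstream kinases and serum response factors had no call among 19 tested by edgeR after siRNA, where 2 had an unadjusted p under 0.05. Under the hairpin, 4 of 20 were called higher and 12 lower, with a median log2 fold change of -0.43. The SRF cofactors ELK1 and ELK3 fell by 0.89 and 1.06 on the log2 scale, MAP2K3, which activates p38, by 1.10, and RPS6KA1, an ERK-activated kinase, by 0.76. SRF itself, named after its value was seen, rose by 0.38 (edgeR adjusted p 0.00081). The CArG boxes of EGR1 printed above are sites of the class these cofactors act on, and whether they bear on EGR1 here was not tested.

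Known AP-1 target genes were examined next. After siRNA, 5 of 19 tested were called and each was lower, with a list median of -0.31. IL6 fell from 27.4 and 22.2 CPM to 10.8 and 11.3 CPM (log2 fold change -1.17, edgeR adjusted p 0.021) and IL8 from 105 and 139 CPM to 63.2 and 42.1 CPM (log2 fold change -1.21, edgeR adjusted p 0.042). IL8 was called higher after shRNA, from 49.0 and 47.6 CPM to 95.7 and 91.8 CPM (log2 fold change 0.96, edgeR adjusted p 1.1e-08), a value added after it was seen. HBEGF, an EGF receptor ligand, fell by 1.17 on the log2 scale, HMOX1 by 1.05, and VEGFA, outside the rule for naming and given here to complete the 5, by 0.51 (edgeR adjusted p 0.09975). After shRNA, 4 of 19 were called higher and 12 lower, with a median of -0.83. VEGFA fell from 146 and 143 CPM to 24.5 and 23.5 CPM, and HBEGF fell by 2.46 on the log2 scale. MMP13, a collagenase whose promoter is known to hold an AP-1 site, moved the other way, from 129 and 137 CPM to 1096 and 1088 CPM, a log2 fold change of 3.03 (SE 0.08). These genes answer to many other factors besides AP-1, and no list gene was tested for dependence on a member.

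Stress programmes that also induce ATF3 were examined beside it. Integrated stress response genes had no edgeR call among 12 tested after siRNA, where 1 had an unadjusted p under 0.05. Under the hairpin 9 of 12 were called, each lower, with a median of -0.57. ASNS fell by 2.43, TRIB3 by 2.24, SESN2 by 0.91 and DDIT4 by 0.71 on the log2 scale, so that ATF3 fell together with most of this list. Of 10 heat shock genes, none was called by edgeR after siRNA, where 2 had an unadjusted p under 0.05, and under the hairpin 1 was called higher and 5 lower, among them HSP90AA1 with a fall of 1.27.

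**Figure D4:**
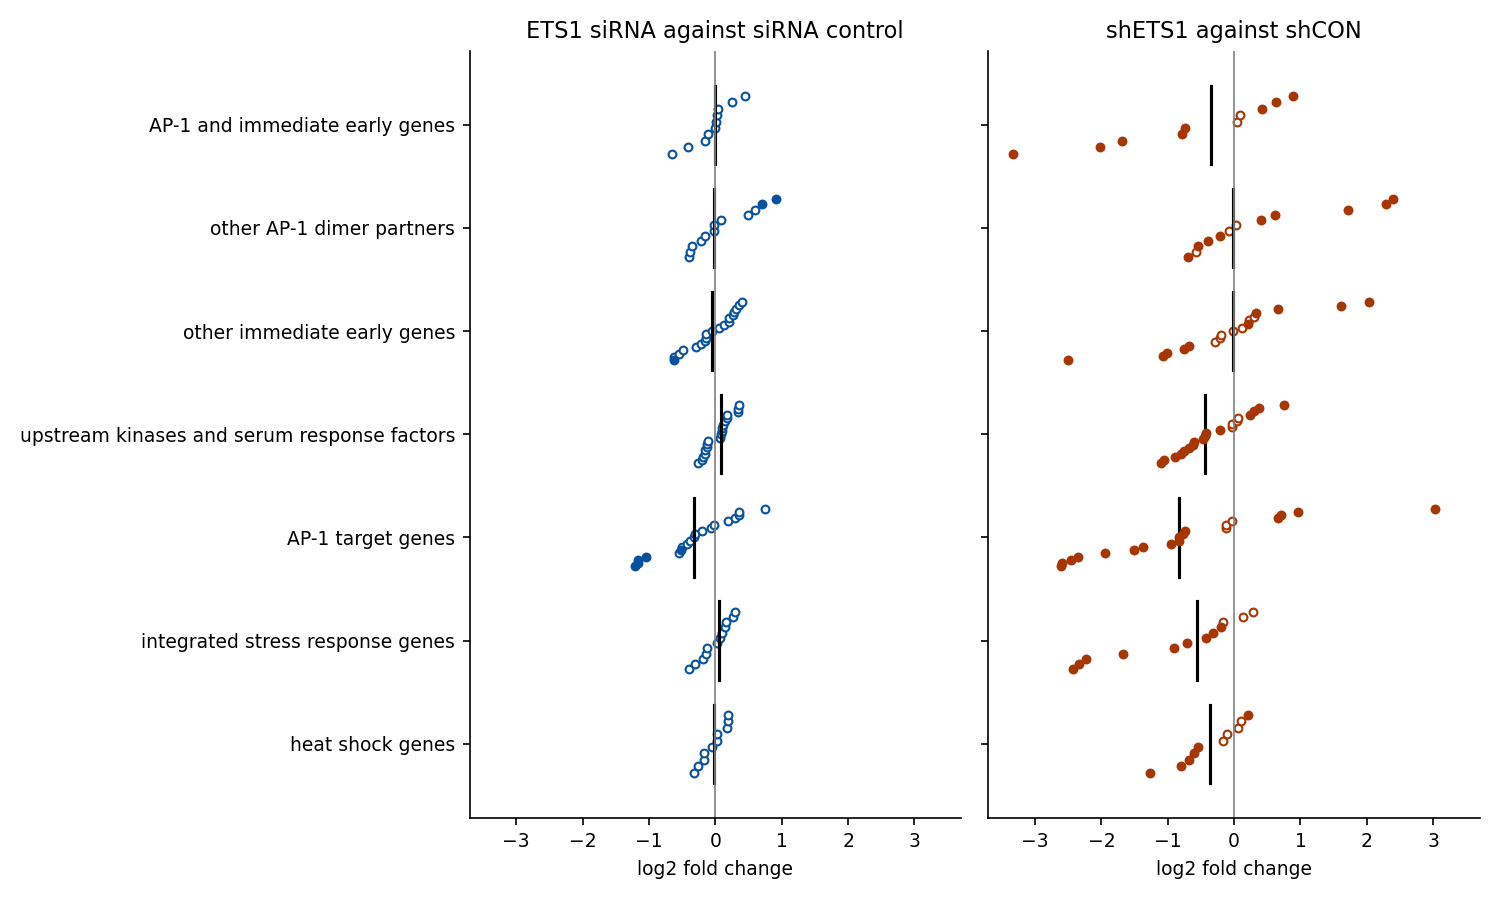
Log2 fold change of each gene in the 10 genes and in 6 related lists, after siRNA (left) and after shRNA (right), where filled points were called and black lines are list medians. After siRNA the calls are 2 dimer partners, MCL1 and 5 AP-1 target genes, and after shRNA the median of the AP-1 target genes is -0.83.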

How the data were processed

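RNA from SCC25 cells was sequenced as Illumina TruSeq libraries. Per the submitters' processing notes, the authors mapped reads to GRCh37 with TopHat2 2.1.1 and Bowtie2 2.2.6 and counted them with featureCounts 1.5.0. The deposited values were read counts, not normalized, listed by gene symbol. The siRNA and shRNA libraries had a table each, and every column was used. Whether counting used strand is not given in the sources used here.

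Knockdown and matching control were compared by the two-sided quasi-likelihood test of edgeR 4.0.16 (R 4.3.3), with TMM scaling, filterByExpr and Benjamini-Hochberg adjustment over all genes tested, at a threshold of 0.1. The interaction was fitted over all 8 libraries. Intervals are 95% and SEs come from the F statistic. Levels are CPM on the scaled library size and, between genes, CPM per kilobase of merged GENCODE v44 exons lifted to GRCh37. Promoter windows came from RefSeq (GRCh38.p14) and were placed in GRCh37 by exact match. The 10 genes and the lists were chosen with earlier results of these data known. From each list the text names at most 4 called genes by p, at a mean of at least 5 CPM; 1 such gene is not reported here. Alternatives were other scalings, other filters, DESeq2 1.42.0, blocks, length and GC offsets, a threshold of 0.05, all 8 libraries together, and leaving out each library. On simulated data, 200 genes were given a change of 1 on the log2 scale, among 14493 (siRNA libraries) and 16132 (shRNA libraries). The test recovered 75.4% and 85.1% of changed genes. Of its calls, 16.9% and 11.2% were unchanged genes, both above the threshold of 0.1. In the shRNA data 60.6% of genes were called, so these rates need not hold there.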

Additional observations from a re-analysis of the deposited data

Results flagged for a closer look

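The test of the difference between the knockdowns itself called 6 of the 10 genes, beside 34.8% of all 17190 genes tested. The difference is given as the shRNA minus the siRNA log2 fold change. The differences were -3.24 for FOSL1, -2.04 for EGR1, -1.55 for IER3, -0.83 for ATF3, 0.61 for FOSL2 and 0.67 for JUND. In FOSL1, EGR1, IER3, ATF3 and FOSL2 the call within a knockdown was made after shRNA, whereas in JUND neither knockdown passed its own threshold and the siRNA value (-0.65) was the larger. Duration, reagent and preparation cannot be told apart in these differences.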

How the results depend on the processing

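Of the 478 values of the 10 genes under the alternatives, 406 kept their direction and side of the threshold. After siRNA the count of calls was 0, beside 502 of all 14742 genes tested. It became 2 with no filter on low counts, beside 1466 of 27545 genes. It was 1 with DESeq2 (797 of 14742 genes) and 1 with length and GC offsets (673 of 13554). With these offsets and a replicate block it was 1 (185 of 13554), and with all 8 libraries together 1 (2166 of 17190). Same-numbered libraries correlated negatively in their deviations from the group means (-0.59 for siRNA, -0.41 for shRNA). Whether the numbers of a group are crossed was not tested, and they were not taken to pair the libraries. The crossed block, chosen after seeing this, called 2 of the 10 after siRNA, beside 3238 of 14742 genes. It called 8 after shRNA (10923 of 16481 genes) and 7 for the interaction (7467 of 17190). A replicate block called 0 after siRNA (97 of 14742 genes) and 8 after shRNA (9173 of 16481). For the interaction it called 3 in place of 6 (4264 of 17190). Leaving out single libraries gave interaction differences of 0.39 to 0.86 for FOSL2, 0.37 to 0.91 for JUND and -1.29 to -0.51 for ATF3. The number of all genes called after siRNA, 502, ranged from 72 without siRNA control replicate 1 to 3238 with the crossed block. DESeq2 returned no adjusted p for FOS and FOSB after siRNA.

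Directions turned for values that were not called in the comparisons as reported. After siRNA, FOS was -0.011 with length and GC offsets and -0.0045 with the block added, and EGR1 was -0.014 by library size only, -0.075 with offsets and -0.074 with the block added. Leaving out libraries gave ranges of -0.046 to 0.15 for FOS, -0.27 to 0.063 for FOSL1, -0.067 to 0.049 for JUN, -0.31 to 0.48 for ATF3 and -0.20 to 0.24 for EGR1. After shRNA, JUN was -0.042 and JUND -0.084 by library size only, where the median of all genes was itself at -0.12, and JUND ranged from -0.019 to 0.092 without single libraries. In the interaction, FOSB was 0.0044 with offsets and ranged from -0.85 to 0.082, JUN was -0.013 by library size only and ranged from -0.0095 to 0.15, and JUNB was 0.0032 among protein-coding genes of at least 1 TPM, 0.40 with offsets, past the threshold (edgeR adjusted p 0.064), 0.40 with the block added, and ranged from -0.28 to 0.15. The causes were not tested. Depth limits FOSB most, with 1.39 and 1.503 CPM in shCON.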
